A study of Mus musculus with 24 samples.

Results

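Adipokines are proteins that fat tissue secretes and that act on other cells or organs. The RNA of 9 of them was followed here through the differentiation of mouse fat cell precursors in culture. The 9 genes were chosen by name from the 24825 genes listed in each library. They are *Adipoq* (adiponectin), *Lep* (leptin), *Retn* (resistin), *Cfd* (complement factor D, also called adipsin), *Nampt* (nicotinamide phosphoribosyltransferase, whose secreted form is called visfatin), *Rarres2* (chemerin), *Apln* (apelin), *Lcn2* (lipocalin 2) and *Nrg4* (neuregulin 4).

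Fat cells mature from fibroblast-like precursors, and the nuclear receptor PPARγ together with C/EBP factors switches on the genes of the mature cell, among them several hormones. Adiponectin, resistin (in mice) and adipsin are made mainly by mature fat cells, and leptin reports the size of the fat stores to the brain. Nampt, apelin and lipocalin 2 are also made by many other cell types, and lipocalin 2 is known as an early gene of inflammation.

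The cells came from the stromal vascular fraction of inguinal white fat of mice, a mixed preparation that contains adipocyte precursors. They were immortalised with SV40 large T antigen and carried an *Nfia* gene with loxP sites on both sides of exon 2 (Nfia flox/flox), which all groups share. *Nfia* encodes nuclear factor I A, a transcription factor of fat cells. The ctrl cells received an empty retroviral vector, and those named Cre received the recombinase. In the group Cre + NFIA the full-length protein, carrying a FLAG tag, was added back to cells with Cre. In Cre + NFIA Δpro#3 the protein added back, also with a FLAG tag, lacked the C-terminal end of its proline-rich domain. Cells were collected at day 0, before induction, and at day 7 of differentiation with a cocktail for thermogenic fat cells that includes the PPARγ agonist rosiglitazone. There were 3 libraries per group, 24 in all. No source used here says whether the replicates were separate cultures, so p-values measure only the spread between these libraries, which may be technical. All groups come from cells of the Nfia flox/flox genotype in culture, and the transgenes were driven by a retroviral vector and not by the *Nfia* promoter.

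Library totals were 7732829 to 13088356 reads at day 0 and 9152991 to 14622189 at day 7. Levels are in FPKM, which scales a gene's reads by its length and by the library total. *Nfia* stood at 9.15 to 9.81 FPKM in the ctrl libraries of day 7 and at 9.49 to 10.7 FPKM in those labelled Cre. It stood at 83.9 to 97.1 FPKM in Cre + NFIA and at 95 to 111 FPKM in Cre + NFIA Δpro#3. The gene total counts exons outside the deleted part and reads of the transgene, so it does not check the deletion, and the groups are named here by their labels. The authors reported efficient recombination by PCR of genomic DNA and a nearly complete loss of NFIA mRNA and protein in cells with Cre. The summed FPKM of 10 adipocyte markers (*Fabp4*, *Plin1*, *Lpl* and others) was 87.8 to 123 at day 0. By day 7 the sum reached 21482 to 25036 in ctrl, 4346 to 9308 in Cre, 20535 to 20770 in Cre + NFIA and 857 to 2115 in Cre + NFIA Δpro#3. Markers of macrophages and leukocytes summed to at most 22.1 FPKM, with *Adgre1* and *Tyrobp* at 0 in every library.

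The stretch of DNA just before a gene's start site is where many transcription factors bind, and NFI proteins recognise the letters TTGGC, alone or as a palindrome. Promoter sequences from RefSeq on GRCm38.p6, 250 bases before to 50 bases after the start site, were found for 8 of the 9 genes. The promoter of *Rarres2* was not analysed here. The 4 printed below belong to the genes with the largest changes at day 7 and to *Lcn2*, which fell during differentiation, and capitals mark TTGGC on either strand (read as GCCAA on the other).
Adipoq, chr16:23146286-23146585, plus strand: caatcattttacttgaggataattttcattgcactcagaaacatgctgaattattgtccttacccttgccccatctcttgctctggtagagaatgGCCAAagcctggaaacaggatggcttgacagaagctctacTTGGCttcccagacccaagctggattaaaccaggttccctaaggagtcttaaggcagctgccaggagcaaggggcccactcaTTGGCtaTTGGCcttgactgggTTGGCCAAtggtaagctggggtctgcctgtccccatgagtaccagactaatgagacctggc
Retn, chr8:3655520-3655819, plus strand: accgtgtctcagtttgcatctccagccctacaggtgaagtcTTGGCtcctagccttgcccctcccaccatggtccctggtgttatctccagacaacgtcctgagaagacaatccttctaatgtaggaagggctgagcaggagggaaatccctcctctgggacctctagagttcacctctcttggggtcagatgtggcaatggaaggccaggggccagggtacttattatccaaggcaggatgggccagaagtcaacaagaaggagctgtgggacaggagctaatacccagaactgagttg
Cfd, chr10:79890603-79890902, plus strand: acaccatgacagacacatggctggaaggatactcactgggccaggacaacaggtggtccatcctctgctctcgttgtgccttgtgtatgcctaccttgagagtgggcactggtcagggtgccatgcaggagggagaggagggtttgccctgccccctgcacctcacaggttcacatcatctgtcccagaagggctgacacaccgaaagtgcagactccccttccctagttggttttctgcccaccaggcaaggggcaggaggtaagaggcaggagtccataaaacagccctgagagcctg
Lcn2, chr2:32387690-32387989, minus strand: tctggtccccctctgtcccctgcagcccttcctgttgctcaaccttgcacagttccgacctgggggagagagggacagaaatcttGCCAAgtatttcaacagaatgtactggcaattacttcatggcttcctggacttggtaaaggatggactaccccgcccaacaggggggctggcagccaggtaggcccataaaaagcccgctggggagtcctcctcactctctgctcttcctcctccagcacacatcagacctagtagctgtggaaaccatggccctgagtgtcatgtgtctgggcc

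The *Adipoq* window held 6 such sites, at 155, 115, 33, 26, 11 and 8 bases before the start site, of which the last 2 overlap each other and 4 overlap 1 of its 3 CCAAT boxes. A window with 6 or more TTGGC sites was found in 0.0274% of 32851 promoters of the same length, and one with at least 1 in 46.7%. *Lep*, *Retn*, *Nampt*, *Apln*, *Lcn2* and *Nrg4* had 1 site each and *Cfd* had 0. None of the 8 windows held the NFI palindrome, which is TTGGC and GCCAA with 5 bases between (0.0365% of promoters), the PPARγ motif, which is AGGTCA repeated after 1 base (0.0396%), or TATAAA (13.6%). *Lep* had the C/EBP palindrome TTGCGCAA (0.183%), 55 bases before its start. These matches describe letters, and no binding was measured here.

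Adiponectin was the most abundant of the 9 at day 7 in every library. *Adipoq* (chromosome 16, 23146609 to 23158101, plus strand, mm9) encodes a hormone that raises insulin sensitivity. At day 0 it was near the limit of detection, at 0.432, 0.652 and 0.496 FPKM in ctrl, 0.879, 0.735 and 0.610 in Cre, 1.83, 1.38 and 1.21 in Cre + NFIA and 0.195, 1.52 and 1.02 in Cre + NFIA Δpro#3. At day 7 the ctrl libraries held 1790, 1964 and 1907 FPKM, those labelled Cre 522, 655 and 320, Cre + NFIA 1811, 1725 and 1821, and Cre + NFIA Δpro#3 51.1, 141 and 158. The day 7 libraries of Cre lay below all of ctrl and Cre + NFIA and above all of Cre + NFIA Δpro#3, while ctrl and Cre + NFIA overlapped. By rank, *Adipoq* was between place 5 and 6 of all genes in ctrl at day 7, between 57 and 154 in Cre, between 8 and 10 in Cre + NFIA and between 346 and 1470 in Cre + NFIA Δpro#3.

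Fold changes below are on the log2(FPKM + 1) scale with the standard error (SE), a scale that understates changes of genes at low levels, and an adjusted p is that of limma with Benjamini-Hochberg adjustment over the 12640 genes tested. A gene "rose" or "fell" where this p was under 0.05, and was called where it also changed at least 3-fold. *Adipoq* at day 7 fell by 1.98 (SE 0.35, limma adjusted p = 0.00048) in Cre against ctrl. It rose by 1.90 (SE 0.35, limma adjusted p = 0.00054) in Cre + NFIA against Cre. In the mutant it fell by 2.18 (SE 0.35, limma adjusted p = 0.0016) against Cre, which was itself below ctrl. Group means differed 3.78-fold between ctrl and Cre and 15.3-fold between the full-length protein and the mutant. Between Cre + NFIA and ctrl the difference was -0.08, with a 95% interval of -0.85 to 0.70 (limma adjusted p = 0.91). In bulk RNA, fewer fat cells and less RNA per fat cell cannot be told apart. *Adipoq* moved with the adipocyte marker sum given above: the lowest Cre library (320 FPKM) was the one with the lowest marker sum of its group (4346), as was the lowest mutant library (51.1 FPKM, marker sum 857). In Cre + NFIA, where both vary little, the lowest library of one was not the lowest of the other.

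**Figure D1:**
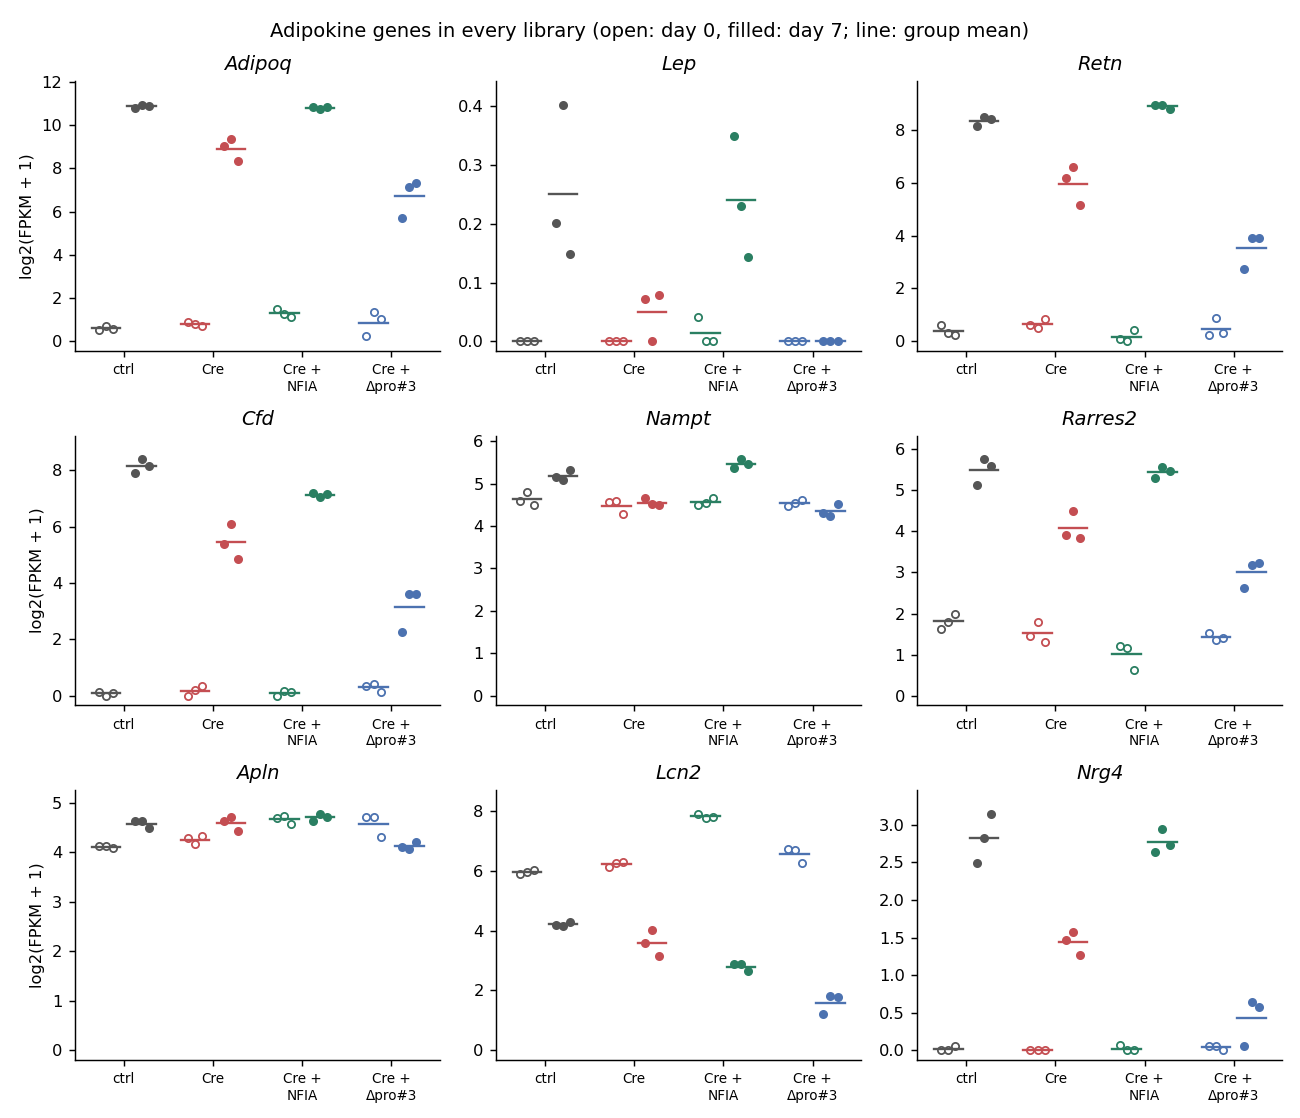
Level of each of the 9 genes in all 24 libraries, as log2(FPKM + 1) on the vertical axis and by cell type on the horizontal axis (Cre + Δpro#3 stands for Cre + NFIA Δpro#3). Open points are day 0, filled points day 7 and lines group means, and each panel has its own scale. Adipoq, Retn, Cfd, Rarres2 and Nrg4 are low at day 0 and order at day 7 with Cre below ctrl and Cre + NFIA Δpro#3 lowest, while Lcn2 is lower at day 7 than at day 0 in all 4 cell types.

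Resistin and adipsin had the same low start and the same low level with the mutant, but differed from each other in Cre + NFIA. *Retn* (chromosome 8, 3655770 to 3660110, plus strand) encodes a secreted hormone of mouse fat cells linked to insulin resistance. It held at most 13 reads in any day 0 library. At day 7 it stood at 280, 362 and 344 FPKM in ctrl, 71.3, 94.9 and 34.4 in Cre, 488, 495 and 440 in Cre + NFIA and 5.60, 14.1 and 14.2 in Cre + NFIA Δpro#3. None of these 4 groups overlapped at day 7, and Cre + NFIA was highest. *Retn* fell by 2.39 (SE 0.35, limma adjusted p = 0.00012) in Cre against ctrl and rose by 2.92 (SE 0.35, limma adjusted p = 1.8e-05) in Cre + NFIA against Cre. Between the mutant and full-length NFIA it fell by 5.37 (SE 0.35, limma adjusted p = 7.2e-08), the largest difference of the 9 genes between cell types, with group means 41.9-fold apart. Its higher level in Cre + NFIA than in ctrl, 0.53 with a 95% interval of -0.24 to 1.31, did not pass the test (limma adjusted p = 0.33), although it did in a model of those groups only (limma adjusted p = 0.014).

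*Cfd* (chromosome 10, 79353598 to 79355401, plus strand) encodes the protease that starts the alternative complement pathway by cutting factor B. No day 0 library had more than 4 of its reads. At day 7 it stood at 238, 337 and 287 FPKM in ctrl, 41.2, 67.1 and 27.7 in Cre, 146, 132 and 143 in Cre + NFIA and 3.81, 11.1 and 11.4 in Cre + NFIA Δpro#3. The 4 groups did not overlap, and here Cre + NFIA lay between Cre and ctrl. In Cre against ctrl *Cfd* fell by 2.71 (SE 0.35, limma adjusted p = 4.3e-05), and in Cre + NFIA against Cre it rose by 1.70 (SE 0.35, limma adjusted p = 0.0012). In the mutant it fell by 2.28 against Cre (SE 0.35, limma adjusted p = 0.0013). Cre + NFIA against ctrl gave -1.02 (95% interval -1.79 to -0.25, limma adjusted p = 0.067), a difference that passed under 5 alternatives, with an adjusted p of 0.001 by limma voom and 0.013 in a model of all 24 libraries.

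Measured within each library against *Adipoq*, the 2 genes went different ways at day 7. *Retn* amounted to 15.6 to 18.4% of the *Adipoq* FPKM in ctrl, 10.8 to 14.5% in Cre, 24.2 to 28.7% in Cre + NFIA and 8.99 to 11% in Cre + NFIA Δpro#3. *Cfd* amounted to 13.3 to 17.1% in ctrl and to 7.90 to 10.2%, 7.67 to 8.04% and 7.19 to 7.86% in the same order of the other 3 cell types. So *Retn* per *Adipoq* was highest in Cre + NFIA, and *Cfd* per *Adipoq* was highest in ctrl. Among the cell types that carry Cre, *Cfd* per *Adipoq* in Cre + NFIA overlapped that in Cre and that in the mutant, and Cre lay above the mutant. These ratios were looked at after the levels were known and are given as a description, with no test.

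**Figure D2:**
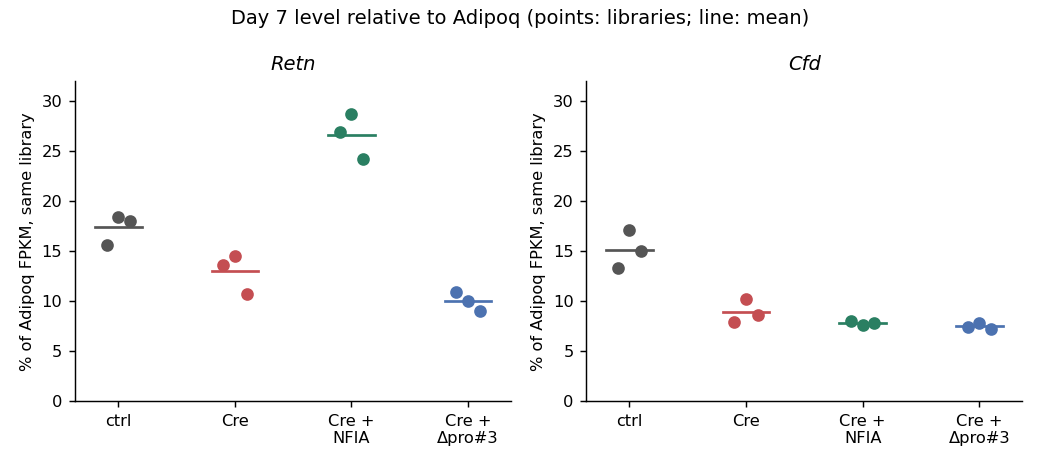
FPKM of Retn (left) and Cfd (right) as a percentage of the Adipoq FPKM of the same day 7 library, by cell type (Cre + Δpro#3 stands for Cre + NFIA Δpro#3). Points are libraries and lines are means of 3. Retn is highest in Cre + NFIA (24.2 to 28.7%), and Cfd is highest in ctrl (13.3 to 17.1%).

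Leptin was almost silent in these cultures. *Lep* (chromosome 6, 29010220 to 29023877, plus strand) had 1 read in all of the 12 day 0 libraries together. At day 7 its reads numbered 6, 11 and 5 in ctrl, 2, 0 and 2 in Cre, 12, 7 and 5 in Cre + NFIA and 0, 0 and 0 in Cre + NFIA Δpro#3. The corresponding FPKM were at most 0.322, and *Lep* was not tested because it did not reach 1 FPKM. A count of 0 in all 3 mutant libraries allows up to 3 reads per library, 0.0759 FPKM on average, and this limit covers counting error only. The libraries of ctrl and Cre + NFIA (5 to 12 reads) did not overlap those of Cre and the mutant (0 to 2 reads).

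Chemerin and neuregulin 4 repeated the order at lower levels. *Rarres2* (chromosome 6, 48519697 to 48522669, minus strand) encodes a chemoattractant that also promotes fat cell differentiation. At day 7 it stood at 33.9, 52.9 and 47.3 FPKM in ctrl, 13.9, 21.5 and 13.2 in Cre, 38.5, 46.3 and 42.9 in Cre + NFIA and 5.17, 8.12 and 8.30 in Cre + NFIA Δpro#3. Libraries of ctrl and Cre + NFIA overlapped, and both lay above Cre, which lay above the mutant. *Rarres2* fell by 1.42 (SE 0.21, limma adjusted p = 0.00011) in Cre against ctrl, rose by 1.37 (SE 0.21, limma adjusted p = 0.00012) in Cre + NFIA against Cre and fell by 1.06 (SE 0.21, limma adjusted p = 0.0049) in the mutant against Cre. Its day 0 values were 2.10, 2.47 and 2.98 FPKM in ctrl, 1.75, 2.45 and 1.48 in Cre, 1.33, 1.25 and 0.552 in Cre + NFIA and 1.90, 1.54 and 1.67 in the mutant. The lower day 0 level in Cre + NFIA than in Cre, -0.51 (limma adjusted p = 0.047), was lost under 11 alternatives, among them the model with the replicate number as a block (limma adjusted p = 0.061). Against ctrl at day 0 it fell by 0.80 (SE 0.17, limma adjusted p = 0.0046).

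*Nrg4* (chromosome 9, 55068029 to 55174651, minus strand) encodes a ligand of ErbB receptors secreted by brown fat in particular. It had at most 1 read in any day 0 library. At day 7 its level was 4.65, 6.08 and 7.86 FPKM in ctrl, 1.77, 1.98 and 1.41 in Cre, 5.21, 6.66 and 5.64 in Cre + NFIA and 0.044, 0.557 and 0.491 in Cre + NFIA Δpro#3, where the lowest library held 1 read. Again ctrl and Cre + NFIA overlapped and the others did not. *Nrg4* fell by 1.38 (SE 0.18, limma adjusted p = 4.9e-05) in Cre against ctrl, rose by 1.33 (SE 0.18, limma adjusted p = 5e-05) in Cre + NFIA against Cre and fell by 1.01 (SE 0.18, limma adjusted p = 0.003) in the mutant against Cre. Group means differed 3.6-fold, 3.39-fold and 4.73-fold in these comparisons, more than the fold changes on the log2(FPKM + 1) scale, since the gene is low.

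*Nampt* and *Apln* were also expressed in precursors. Between Cre and each other cell type at day 7 they changed less than *Adipoq*, *Retn*, *Cfd*, *Rarres2* and *Nrg4*. *Nampt* (chromosome 12, 33505200 to 33538234, plus strand) encodes the rate-limiting enzyme that makes NAD from nicotinamide. It ranged from 18.5 to 26.8 FPKM over the 12 libraries of day 0. The day 7 values were 34.6, 32.7 and 39.0 FPKM in ctrl, 24.1, 21.8 and 21.4 in Cre, 40.2, 46.6 and 42.8 in Cre + NFIA and 18.6, 18.0 and 22.0 in Cre + NFIA Δpro#3. Cre and the mutant overlapped, ctrl lay above both and Cre + NFIA was highest. *Nampt* fell by 0.63 (SE 0.09, limma adjusted p = 7.6e-05) in Cre against ctrl and rose by 0.91 (SE 0.09, limma adjusted p = 2.8e-06) in Cre + NFIA against Cre. Its group mean in Cre + NFIA was 1.93-fold that in Cre and 2.21-fold that in the mutant. The mutant differed from Cre by -0.19 (limma adjusted p = 0.16), which passed only without the third day 7 replicate of the mutant (limma adjusted p = 0.0497). The higher level in Cre + NFIA than in ctrl, 0.28 (limma adjusted p = 0.048), was lost under 10 alternatives, with the replicate block at a limma adjusted p of 0.056.

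*Apln* (chromosome X, 45378323 to 45388030, minus strand) encodes a peptide that acts on blood vessels and the heart. Its 24 values lay between 15.9 and 26.6 FPKM. At day 7 the ctrl libraries held 23.8, 23.8 and 21.5 FPKM, Cre 23.8, 25.2 and 20.6, Cre + NFIA 23.7, 26.6 and 25.2, and Cre + NFIA Δpro#3 16.3, 15.9 and 17.6. The first 3 groups overlapped, and the mutant lay below all of them. The mutant fell by 0.46 (SE 0.08, limma adjusted p = 0.002) against Cre and by 0.57 (SE 0.08, limma adjusted p = 3.2e-05) against Cre + NFIA. Cre + NFIA against Cre gave 0.12 (limma adjusted p = 0.21), which passed under median-of-ratios scaling (0.22, limma adjusted p = 0.024). Cre against ctrl gave 0.01, with an interval of -0.16 to 0.18, and the sign of this value changed under median-of-ratios scaling (-0.12) and quantile normalization (-0.034). At day 0 *Apln* was at 23.0 to 25.5 FPKM in Cre + NFIA and at 16.9 to 19.1 in Cre, a rise of 0.41 (SE 0.10, limma adjusted p = 0.0091). In the mutant at day 0 it was at 19.0 to 25.3 FPKM, and its difference of 0.33 from Cre (limma adjusted p = 0.041) was lost under 8 alternatives.

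Lipocalin 2 was higher in precursors than after differentiation. *Lcn2* (chromosome 2, 32240153 to 32243317, minus strand) encodes a secreted protein that binds bacterial iron carriers. In precursors at day 0 it stood at 58.3, 60.9 and 64.0 FPKM in ctrl, 68.4, 76.4 and 78.1 in Cre, 240, 216 and 224 in Cre + NFIA and 106, 104 and 75.1 in Cre + NFIA Δpro#3. Cre + NFIA was far above every other library, while Cre and the mutant overlapped. *Lcn2* rose by 1.60 (SE 0.11, limma adjusted p = 3.7e-06) in Cre + NFIA against Cre, and the mutant against full-length NFIA gave -1.26 (SE 0.11, limma adjusted p = 4.4e-05). The mutant against Cre gave 0.33 (95% interval 0.08 to 0.58, limma adjusted p = 0.066), which passed under 3 alternatives: a mean of at least 5 FPKM and voom (limma adjusted p = 0.038 for both), and without the third mutant replicate (0.49, limma adjusted p = 0.0021). Against ctrl the mutant rose by 0.61 (limma adjusted p = 0.0025).

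At day 7 *Lcn2* was lower in every cell type than at day 0, at 17.2, 16.8 and 18.4 FPKM in ctrl, 11.1, 15.1 and 7.96 in Cre, 6.37, 6.30 and 5.21 in Cre + NFIA and 1.31, 2.52 and 2.40 in Cre + NFIA Δpro#3. The 4 groups did not overlap, and Cre + NFIA, highest at day 0, was below Cre and ctrl. It fell by 0.80 (SE 0.20, limma adjusted p = 0.0038) in Cre + NFIA against Cre and by 2.0 (SE 0.20, limma adjusted p = 0.00025) in the mutant against Cre. In Cre + NFIA against ctrl it fell by 1.41 (SE 0.20, limma adjusted p = 0.00057). The fall in Cre against ctrl, 0.61 on the log2 scale, gave -0.61 (SE 0.20, limma adjusted p = 0.019), and was lost without the third ctrl replicate (-0.58, limma adjusted p = 0.056) or the third Cre replicate (-0.40, limma adjusted p = 0.082) of day 7. The change of the NFIA effect between days, -2.39 (SE 0.24), was itself past the test (limma adjusted p = 7.5e-08).

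Counted over the set, the comparison of Cre with ctrl at day 7 had 8 genes tested, of which 0 rose and 7 fell, beside 22.7% of all genes tested that fell. Called lower were 3 (*Adipoq*, *Retn* and *Cfd*), beside 1.27% of all genes. In Cre + NFIA against Cre at day 7, 6 rose, beside 27% of all genes, and *Lcn2* fell, beside 35.9%. Called higher were the same 3 genes, beside 2.13% of all genes, and without the third Cre replicate of day 7 the change of *Cfd*, 1.4, was under 3-fold, as it was with quantile normalization (1.53). In the mutant against Cre, 7 fell, beside 10% of all genes, and 4 were called (*Adipoq*, *Retn*, *Cfd* and *Lcn2*), beside 0.593%. Between the mutant and full-length NFIA all 8 fell, beside 28.9% of all genes, and 5 were called lower, beside 4.6%. The mutant against ctrl had 8 that fell, beside 25.4%, and 6 called lower, beside 3.75%. Cre + NFIA against ctrl at day 7 had 0 called (0.245% of all genes were called higher and 0.0554% lower), with *Nampt* higher (8.81% of all genes rose) and *Lcn2* lower (9.15% fell). These comparisons share libraries and are not independent of each other.

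**Figure D3:**
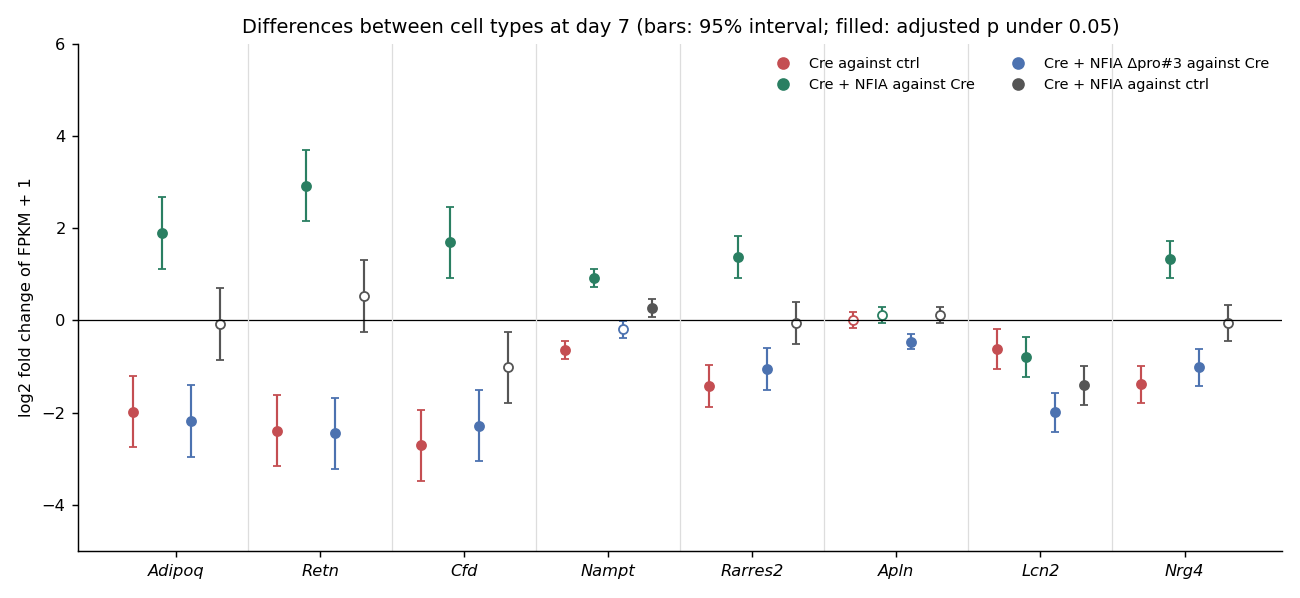
Log2 fold change of FPKM + 1 at day 7 (vertical axis) for the 8 genes tested (horizontal axis) in 4 comparisons marked by color. Bars are 95% intervals of limma, and filled points have an adjusted p under 0.05. Retn, Cfd and Adipoq have the largest changes, Apln passes the test only with the mutant, and Lcn2 is below zero in every comparison shown.

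At day 0 few of the genes differed between cell types. In Cre against ctrl limma passed 0 of 8 (1.63% of all genes rose and 1.7% fell), and at an unadjusted p under 0.05 it passed 1, *Lcn2*. In Cre + NFIA against Cre 2 rose (*Lcn2* and *Apln*), beside 14.7% of all genes, 1 fell (*Rarres2*), beside 12.9%, and *Lcn2* was the 1 called, beside 0.372%. That call sat at the edge of the 3-fold threshold and its count was 0 without the first Cre replicate or the first Cre + NFIA replicate of day 0. In the mutant against Cre 1 rose, *Apln*, beside 9.26% of all genes, and in the mutant against full-length NFIA 1 fell, *Lcn2*, beside 5.59%. In Cre + NFIA against ctrl 3 rose, beside 18.8% of all genes, 1 fell, *Rarres2*, beside 14.3%, and *Lcn2* was the 1 called higher, beside 0.253%. *Adipoq* was higher in Cre + NFIA than in ctrl at day 0 by 0.69 (SE 0.22, limma adjusted p = 0.033), on 16 to 24 reads per library against 6 to 10, and this was lost under 8 alternatives (limma adjusted p = 0.052 to 0.11), among them leaving out any 1 ctrl library or the first or second of Cre + NFIA.

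From day 0 to day 7, 7 of the 8 genes rose in ctrl (32.9% of all genes did), 6 in Cre (30%), 6 in Cre + NFIA (31.8%) and 5 in the mutant (24.5%). *Adipoq* rose by 10.27 in ctrl, 8.11 in Cre, 9.51 in Cre + NFIA and 5.86 in Cre + NFIA Δpro#3 on the log2 scale (SE 0.31 each, limma adjusted p at most 5.3e-12). *Retn* rose by 7.96, 5.32, 8.71 and 3.05 and *Cfd* by 8.07, 5.27, 7.04 and 2.87 in the same order. *Rarres2* rose by 3.68, 2.55, 4.43 and 1.58 and *Nrg4* by 2.80, 1.44, 2.74 and 0.39, the last of which (limma adjusted p = 0.041) was lost under 8 alternatives. So the mutant cells still raised *Adipoq*, *Retn*, *Cfd* and *Rarres2*, each less than cells labelled Cre did (limma adjusted p = 0.0012, 0.00083, 0.00028 and 0.021 for the difference, against 0.24 to 0.47 by limma voom on reads). With a pseudocount of 0.1 the differences of *Retn* and *Rarres2* did not pass either (limma adjusted p = 0.061 and 0.066), nor did that of *Rarres2* without the third day 0 or the second day 7 replicate of Cre or the first day 7 replicate of the mutant (limma adjusted p = 0.053 to 0.074).

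The remaining genes did not share this rise. *Nampt* rose in ctrl (0.55) and Cre + NFIA (0.90) and did not pass in Cre (0.07) or the mutant (-0.19). *Apln* rose in ctrl (0.47) and Cre (0.33), fell in the mutant by 0.45, and gave 0.04 in Cre + NFIA (limma adjusted p = 0.74). *Lcn2* fell, with changes of -1.75 in ctrl, -2.64 in Cre, -5.03 in Cre + NFIA and -4.97 in the mutant (SE 0.17 each, limma adjusted p at most 8.3e-09). Called higher were 5 of the 8 in ctrl (5.64% of all genes), 4 in Cre (2.26%), 5 in Cre + NFIA (5.78%) and 3 in the mutant (1.14%). *Lcn2* was the 1 called lower in each (2.86%, 0.467%, 3.31% and 0.316% of all genes).

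**Figure D4:**
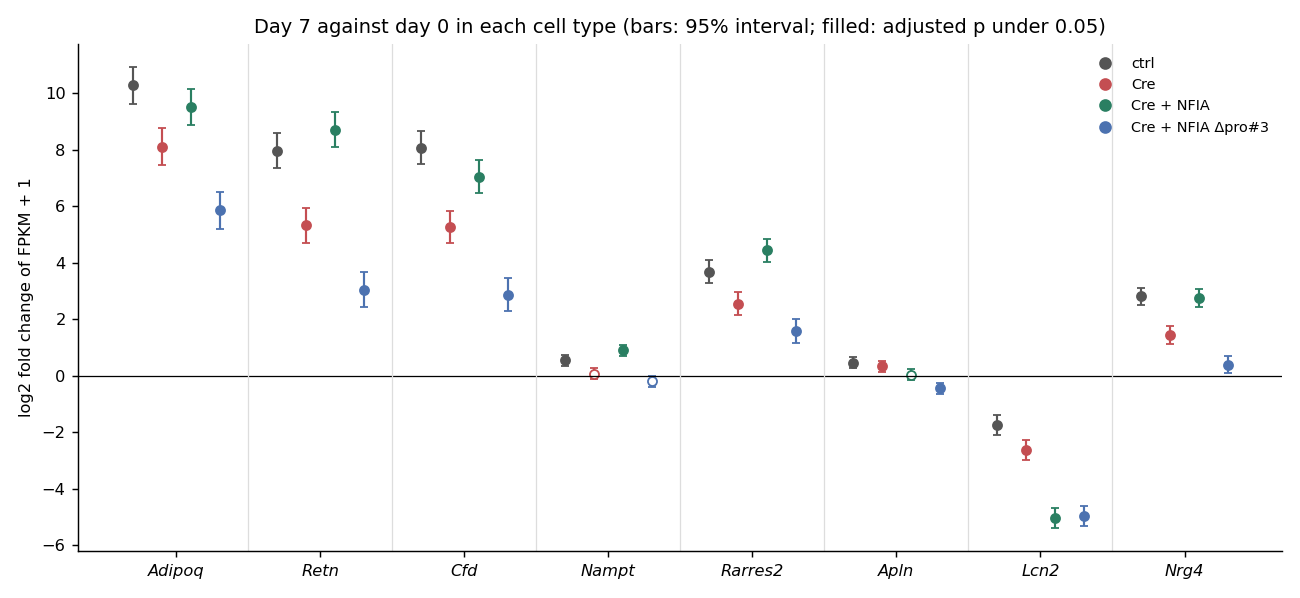
Log2 fold change of FPKM + 1 from day 0 to day 7 (vertical axis) for the 8 genes tested in each of the 4 cell types (colors). Bars are 95% intervals of limma, and filled points have an adjusted p under 0.05. Lcn2 falls in all 4 cell types, most in those with an NFIA transgene, and the mutant has the smallest rise of Adipoq, Retn, Cfd, Rarres2 and Nrg4.

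The receptors of these hormones were mostly faint in the cultures themselves. Of 15 receptor genes 7 were tested, and those of leptin (*Lepr*), apelin (*Aplnr*) and chemerin (*Cmklr1*), and *Erbb4*, the main receptor of neuregulin 4, did not reach the filter of 1 FPKM in 3 libraries, *Erbb4* being listed at 0. The adiponectin receptors were both present. *Adipor1* was at 45.1 FPKM in ctrl and 46.2 in Cre at day 7 (means of 3, limma adjusted p = 0.64). *Adipor2* rose during differentiation by 3.26 in ctrl (limma adjusted p = 1.2e-14), to 162 FPKM from 16. At day 7 its means were 69.4 FPKM in Cre, 162 in Cre + NFIA and 29.8 in the mutant, with falls of 1.23 in Cre against ctrl (limma adjusted p = 7.8e-05) and 1.2 in the mutant against Cre (limma adjusted p = 0.00094). *Slc22a17*, a lipocalin 2 receptor, went the other way in Cre against ctrl and in Cre + NFIA against Cre, and *Erbb2* went the other way in Cre against ctrl. The *Slc22a17* means were 4.45 FPKM in ctrl, 11.1 in Cre and 2.99 in Cre + NFIA. In the mutant its mean, 9.60 FPKM, was below that of Cre, as was that of *Adipor2*. In Cre against ctrl 4 of the 7 rose (36.1% of all genes) and 1 fell (22.7%), with a median of 0.15 beside 0.09 over all genes tested.

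Adipsin's partners were on before adipsin was. *C3*, the central complement protein, was at 284 FPKM in ctrl at day 0 and *Cfb*, the substrate of adipsin, at 206, while *Cfd* was at 0.0597. By day 7 *C3* fell by 1.1 (limma adjusted p = 3e-09) and *Cfb* fell by 2.53 (limma adjusted p = 1.3e-16) in ctrl, to 132 and 34.8 FPKM. In Cre + NFIA against Cre *C3* rose at both days, by 0.76 at day 0 and 0.99 at day 7 (limma adjusted p = 6.8e-06 and 1.9e-05), and *Cfb* at day 7 gave -0.08 (limma adjusted p = 0.44). Of 9 genes of this pathway 3 were tested, the third being *Cfp*.

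**Figure D5:**
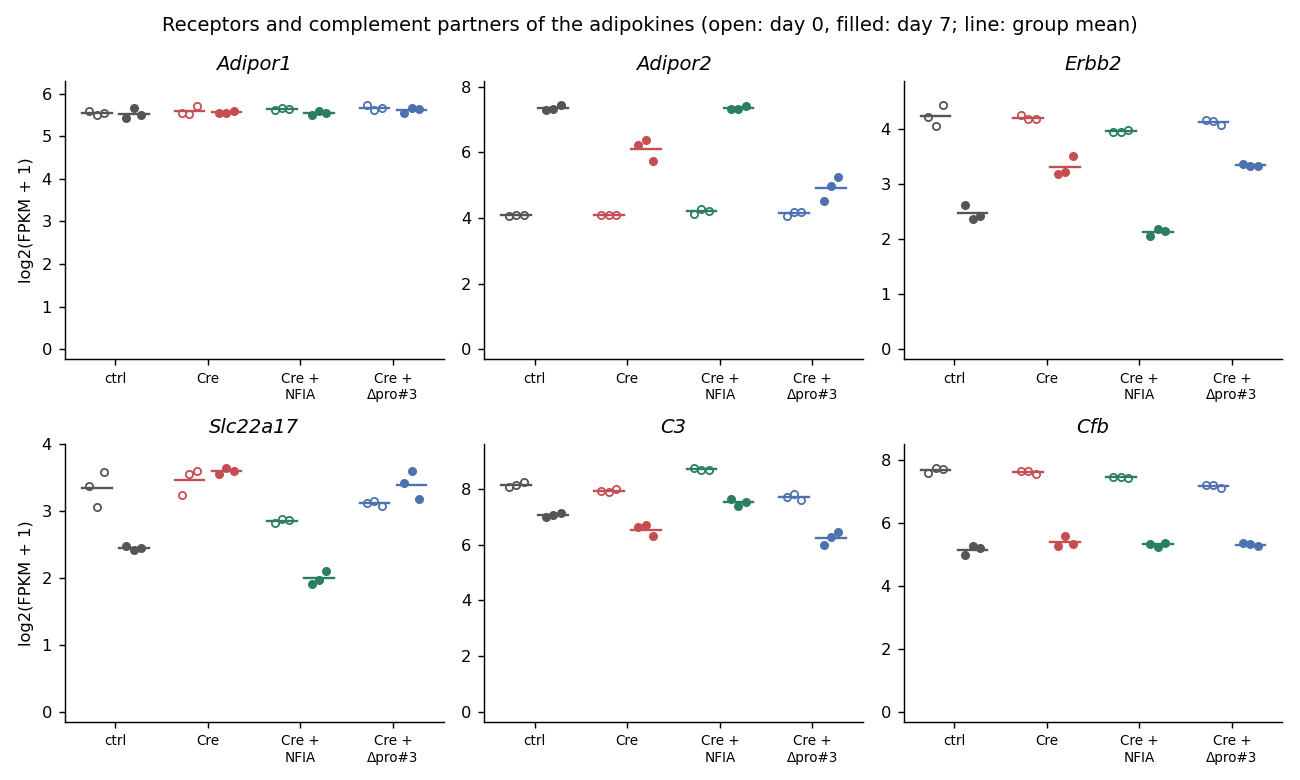
Level of 4 receptor genes and of the complement genes C3 and Cfb in the 24 libraries, as log2(FPKM + 1) by cell type (Cre + Δpro#3 stands for Cre + NFIA Δpro#3). Open points are day 0, filled points day 7 and lines group means. Adipor2 lies close together at day 0 and orders at day 7 with ctrl and Cre + NFIA highest, and C3 and Cfb are lower at day 7 than at day 0 in all 4 cell types.

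Other secreted factors of fat were mixed. Of a list of 27 further adipokines 21 were tested, and in Cre against ctrl at day 7, 12 rose and 7 fell, beside 36.1% and 22.7% of all genes (median 0.48 beside 0.09). *Rbp4*, a retinol carrier, fell by 2.94 there and rose by 4.87 in Cre + NFIA against Cre (limma adjusted p = 6.6e-07 and 7.4e-09), at means of 83.9, 10.3, 322 and 2.49 FPKM in ctrl, Cre, Cre + NFIA and the mutant. *Gpx3*, a secreted glutathione peroxidase, rose by 2.62 in Cre against ctrl (limma adjusted p = 5.4e-08), at means of 13.2, 86.0, 48.2 and 149 FPKM in the same order. *Ccl2*, a chemokine for monocytes, fell by 3.5 during differentiation of ctrl (limma adjusted p = 2.1e-17) and was at 131, 407, 102 and 496 FPKM at day 7. At day 0 *Saa3*, an acute phase protein, was like *Lcn2* higher in Cre + NFIA than in Cre, by 1.07 (limma adjusted p = 0.0008). Its day 0 means were 643 FPKM in ctrl, 551 in Cre, 1155 in Cre + NFIA and 1147 in the mutant.

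Nampt works beside other enzymes that make or use NAD. Of 12 genes of NAD synthesis and use found in the files 10 were tested, and in Cre against ctrl at day 7, 2 rose and 3 fell, beside 36.1% and 22.7% of all genes, with a median of -0.05 beside 0.09. *Nnmt*, which methylates nicotinamide, fell by 0.68 there and rose by 0.81 in Cre + NFIA against Cre (limma adjusted p = 1.8e-05 and 3.1e-06), and *Nadk* fell by 0.70 and rose by 0.63 (limma adjusted p = 1.3e-06 and 1.2e-06). Of the 10 genes listed for folding and assembly of adiponectin, 6 rose and 0 fell in Cre against ctrl, beside 36.1% and 22.7% of all genes (median 0.23 beside 0.09), with *P4hb* higher by 0.45 (limma adjusted p = 2.7e-05) and *Calr* by 0.14 (limma adjusted p = 0.029). *C1qtnf12*, a relative of adiponectin in the C1q/TNF-related family, fell by 1.04 in Cre against ctrl and rose by 1.39 in Cre + NFIA against Cre (limma adjusted p = 2.9e-05 and 1.8e-06), and the other 3 tested members of that family of 10 found rose in Cre and fell in Cre + NFIA.

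*Pparg* and *Cebpa*, from a list of 6 adipocyte regulators, ordered at day 7 with Cre below ctrl and the mutant lowest, like *Adipoq*. *Pparg* had day 7 means of 52.0 FPKM in ctrl, 22.4 in Cre, 60.0 in Cre + NFIA and 9.02 in the mutant, and *Cebpa* 154, 68.0, 163 and 25.2. Both fell in Cre against ctrl, by 1.21 and 1.2 (limma adjusted p = 0.00016 and 0.00047). At day 0 both rose in Cre + NFIA against Cre, by 0.91 and 1.17 (limma adjusted p = 0.0015 and 2.1e-05). The summed FPKM of all 6 regulators at day 7 was 534 to 641 in ctrl and 221 to 332 in Cre. It was 632 to 651 in Cre + NFIA and 134 to 172 in the mutant. How many of the 6 rose or fell is not reported here. All 10 adipocyte markers fell in Cre against ctrl at day 7, beside 22.7% of all genes (median -1.75 beside 0.09). They rose in Cre + NFIA against Cre, beside 27% (1.71 beside -0.057), and fell in the mutant against Cre, beside 10% (-2.04 beside 0.018). Markers of stromal precursors summed to 863 to 937 FPKM in ctrl, 1818 to 2081 in Cre, 768 to 864 in Cre + NFIA and 1994 to 2320 in the mutant at day 7. The part of cell composition in the levels of the adipokines was not tested.

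Across the 24 libraries the genes whose log2(FPKM + 1) was most like *Adipoq* were *Plin1* (Pearson's r = 0.999), *G0s2* and *Cidec*. For *Retn*, *Pcx* (0.997) and *Abhd15* were among the 3 most alike. The genes most like the others were, for *Cfd*, *Ppargc1b* (0.998), *Tmem182* and *Mrap*, for *Rarres2* *Arxes2* (0.990), *Adcy6* and *Mtus1*, and for *Nrg4* *Gm9899* (0.995), *Hadh* and *Slc13a4*. The likeness was lower for *Nampt* (*Sh3glb1*, 0.963), for *Lcn2* (*Zc3h12a*, 0.953, among its 3 most alike) and for *Apln* (*Faap24*, 0.817). These values are over libraries that fall into groups by day and cell type, and are a description.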

How the data were processed

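RNA was measured in 24 stranded mRNA libraries (8 groups of 3). The authors aligned reads to the mm9 mouse genome with STAR 2.5.3a, kept unique alignments, counted matched-strand reads per gene and deposited FPKM values. Every FPKM value was a whole multiple of what 1 read was worth (100% of values within 0.1 of a whole read), which gave back reads and library totals. Genes with at least 1 FPKM in at least 3 libraries (12640) were tested on log2(FPKM + 1) with limma 3.58.1 (R 4.3.3, mean-variance trend, two-sided), on the 12 libraries of 1 day, or on all 24 for changes between days. Comparisons were of cell types within a day, of days, and of their difference. The 9 members, the gene lists and the tests were chosen with earlier results of these data known. Named genes were the 9 members, *Nfia*, *Pparg* and *Cebpa*, at most 5 of each gene list (those with the highest mean FPKM or the largest change in the comparison described) and, for each tested member, the 3 genes most correlated with it over the 24 libraries, leaving out genes under 200 bases. Of these correlated genes 2 are not reported here. No batch is given in the labels. Positions are from GENCODE vM1 on NCBIM37 (mm9), 1-based.

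The tests were run on simulated data in which 200 genes changed 6-fold. For Cre against ctrl at day 7, 186 of these were called, and of the unchanged genes 1 was called and 14 passed. For the change of Cre + NFIA against Cre between days the numbers were 187, 5 and 20. With 0 genes changed, 0 passed in either. The simulation gave every gene the same spread, so it does not cover genes that vary more between replicates. Replicate libraries differed by more than sampling noise (chi-square per degree of freedom 2.17 to 15.1 within groups), so none was counted as a repeat. Alternatives were pseudocounts of 0.1 and 5, no filter, a mean of at least 5 FPKM, median-of-ratios and quantile scaling, other sets of libraries in the model, limma without trend, a 2-fold threshold, a replicate block, and each library left out. Limma voom on the recovered reads was added after seeing the data, as were all alternatives for the 2 NFIA transgenes against ctrl at day 0. A count of 0 was read as up to 3 reads, and this covers counting error only.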

Additional observations from a re-analysis of the deposited data

Results flagged for a closer look

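In 21 cases the difference between cell types changed from day 0 to day 7 by limma's test of that change (log2 scale, adjusted p under 0.05). The share of all genes past that test is not reported here, so the count of 21 has nothing beside it. For Cre against ctrl the change was -2.17 for *Adipoq*, -2.64 for *Retn*, -2.81 for *Cfd*, -0.48 for *Nampt*, -1.13 for *Rarres2*, -0.89 for *Lcn2* and -1.37 for *Nrg4*, and 3 were called lower (1.27% of all genes). For Cre + NFIA against Cre it was 1.40 for *Adipoq*, 3.39 for *Retn*, 1.78 for *Cfd*, 0.83 for *Nampt*, 1.88 for *Rarres2*, -2.39 for *Lcn2* and 1.31 for *Nrg4*. There, 3 were called higher (1.7%) and 1 lower (1.16%). For Cre + NFIA Δpro#3 against Cre it was -2.25 for *Adipoq*, -2.28 for *Retn*, -2.40 for *Cfd*, -0.97 for *Rarres2*, -0.78 for *Apln*, -2.33 for *Lcn2* and -1.05 for *Nrg4*, with 4 called lower (0.736%). *Adipoq*, *Retn*, *Cfd* and *Nrg4* had few reads at day 0. With a pseudocount of 0.1 the *Adipoq* change of 1.40 in Cre + NFIA against Cre became 1.01 and did not pass (limma adjusted p = 0.20). By limma voom on reads, 13 of the 21 did not pass, all of them in *Adipoq*, *Retn*, *Cfd*, *Rarres2* and *Nrg4*, and those of *Nampt*, *Apln* and *Lcn2* did.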

How the results depend on the processing

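Of 152 tested combinations of gene and comparison 100 passed, and 81 of these passed under every alternative run. None of the 100 changed sign. For Cre + NFIA and for the mutant against ctrl at day 0 the alternatives were chosen after seeing the data. A 2-fold threshold gave 5 called members in Cre against ctrl at day 7, beside 971 of the 12640 genes tested. It gave 5 in Cre + NFIA against Cre at day 7 (1616 of all genes) and 1 in the mutant against Cre + NFIA at day 0 (129). It gave 1 in Cre + NFIA against ctrl at day 7 (131) and 5 for the change of Cre against ctrl between days (1053). For Cre + NFIA against Cre at day 0 the count of 1 became 0 with a pseudocount of 5, 0 with median-of-ratios scaling, 2 by limma voom and 0 to 1 with 1 library left out. For day 7 against day 0 in the mutant it became 2 with a pseudocount of 5. Limma voom gave 0 for the change of Cre against ctrl between days and 1 for that of the mutant against Cre, although it called more of all genes (446 against 194, and 130 against 97) and its values of *Adipoq* were -2.49 and -2.05. The cause was not tested.

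Leaving out 1 library gave 3 to 4 for Cre against ctrl at day 7, 2 to 3 for Cre + NFIA against Cre at day 7, 4 to 5 for day 7 against day 0 in the mutant and 3 to 5 for the change of Cre + NFIA against Cre between days, and the counts of the other comparisons did not move, apart from that of Cre + NFIA against Cre at day 0.

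Values that changed sign had not passed the test. *Apln* in Cre against ctrl at day 7 gave -0.12 with median-of-ratios and -0.034 with quantile scaling, and *Adipoq* in the mutant against Cre at day 0 gave -0.039 with a pseudocount of 0.1 and -0.13 by voom. Without 1 library these ranged from -0.051 to 0.087 and from -0.16 to 0.38. At day 0 the same left-out libraries gave -0.17 to 0.0040 for *Cfd* and -0.0069 to 0.14 for *Nampt* in Cre + NFIA against Cre. They gave -0.19 to 0.048 for *Rarres2* and -0.027 to 0.12 for *Nampt* in the mutant against Cre, and -0.053 to 0.021 for *Nampt* and -0.16 to 0.044 for *Apln* in the mutant against Cre + NFIA. For Cre + NFIA against ctrl they gave -0.025 to 0.066 for *Cfd*, -0.13 to 0.016 for *Nampt* and -0.019 to 0.023 for *Nrg4*, and in the mutant against ctrl -0.12 to 0.20 for *Retn*. In Cre + NFIA against ctrl at day 7 *Rarres2* gave -0.23 to 0.082 and *Nrg4* -0.22 to 0.11. From day 0 to day 7 *Nampt* gave -0.023 to 0.13 in Cre and *Apln* -0.0088 to 0.076 in Cre + NFIA.

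Replicate numbers recur in each group. Same-numbered libraries' deviations correlated between -0.27 and 0.22, so the numbers were not taken as pairs. With the replicate number as a block the counts of called members were the same, for example 3 in Cre against ctrl at day 7, and 2 differences that had passed (*Rarres2* and *Nampt*, above) did not.

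Median-of-ratios scaling moved the median of all genes from 0.09 to -0.02 in Cre against ctrl, from 0.10 to -0.01 in the mutant against Cre + NFIA and from 0.13 to -0.00 in the mutant against ctrl at day 7. Counts of genes called over the whole table depended on the method: at day 7, for Cre against ctrl, for Cre + NFIA and for the mutant (the last 2 against Cre), they were 191, 459 and 79, and became 507, 996 and 217 by voom, 433, 912 and 196 with a pseudocount of 0.1, 72, 163 and 27 with a pseudocount of 5 and 971, 1616 and 243 with a 2-fold threshold. Depth limits *Lep*, and *Cfd*, *Nrg4* and *Retn* at day 0, to a few reads.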
